A study of Mus musculus with 15 samples.

Results

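The cytosolic ribosomal proteins are the protein subunits of the ribosome, each made from its own gene and built with ribosomal RNA into a small (40S) and a large (60S) subunit. Proteins named Rps belong to the small subunit and proteins named Rpl to the large one. Their messenger RNAs are among the most abundant of a cell, and most begin with a run of pyrimidines, the 5′ terminal oligopyrimidine (TOP) tract, through which mTORC1 controls their translation. Haematopoietic stem cells (HSCs) at rest are known for a low rate of protein synthesis, and in humans the loss of 1 copy of several of these genes causes Diamond-Blackfan anaemia, a failure of red cell production.

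The genes were taken by name from the deposited tables: symbols made of Rpl or Rps and a number with at most a short paralog letter, together with Rpsa, without the S6 kinases, Rps27l and symbols marked as pseudogenes. The rule gave 86 genes of the 46102 in the tables, 35 of the small and 51 of the large subunit. RefSeq types 80 of them as protein coding and 6 as pseudogenes. Reads were detected for 80 genes. The 6 pseudogenes (Rps4l, Rps12l1, Rpl6l, Rps3a2, Rps3a3 and Rpl32p) had 0 reads in all 15 libraries, and 0 reads allow a level of up to 0.112 to 0.486 CPM (a gene's count scaled to the library's size), depending on the library (3 reads of the library's exon reads, counting error only). A further 4 genes had few reads in all libraries together: Rpl32l 363, Rpl3l 60, Rpl39l 21 and Rpl10l 3. The filter on low counts kept 77 of the 86 genes in each comparison, and the 9 it removed are the 6 pseudogenes, Rpl3l, Rpl39l and Rpl10l.

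HSCs of wild-type C57BL/6 mice aged 8 to 10 weeks were profiled by RNA-seq of 100 sorted cells per library. The 5-FU day4 group (4 libraries) was sorted 4 days after 5-fluorouracil, an antimetabolite that kills cycling marrow cells and drives the surviving HSCs into division, and the Untreated group (4 libraries) had no drug. The Nifedipine group (4 libraries) had been cultured with nifedipine, a blocker of L-type calcium channels, and the Control group (3 libraries) had been cultured without it; both were sorted again while they had divided at most 3 times. Neither the drug doses nor how long the cells were cultured is given in the sources used here. The labels do not tell separate animals or cultures apart among replicates, so the p-values measure the spread between these libraries, which may be technical. In such bulk libraries, fewer cells of a type and less RNA per cell cannot be told apart.

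The libraries held between 6171730 and 26673045 exon reads. All 10 HSC markers had reads in every group, with a summed level of 3197 to 3452 CPM in 5-FU day4 libraries, 4575 to 4892 CPM in Untreated libraries, 2227 to 2500.3 CPM in Nifedipine libraries and 1427 to 1495 CPM in Control libraries. The sum of 10 cycling markers was 2595 to 3029 CPM in 5-FU day4 libraries and 156 to 675 CPM in Untreated libraries, and 1904 to 2181 CPM in Nifedipine libraries and 2957 to 3114 CPM in Control libraries. Erythroid markers summed to 1943 and 2204 CPM in Untreated replicates 2 and 4, against 131 and 151 CPM in the other two, and endothelial and stromal markers reached 1727 CPM in Untreated replicate 2. The part of these markers in the results below was not tested.

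The promoters of 6 genes are shown because their transcripts carry the changes described below: Rps27, Rps2, Rpl41, Rpsa, Rpl15 and Rpl23. Each line holds 70 bases before and 30 bases from the annotated start of RefSeq (GRCm38.p6), 5′ to 3′ on the gene's strand. Capitals mark CCGGAA or its reverse complement TTCCGG, the core bound by ETS factors such as GABP.
Rps27 (chr3:90213619-90213718, minus strand): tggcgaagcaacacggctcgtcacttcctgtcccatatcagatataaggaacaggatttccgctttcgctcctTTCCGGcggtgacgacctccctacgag
Rps2 (chr17:24719993-24720092, plus strand): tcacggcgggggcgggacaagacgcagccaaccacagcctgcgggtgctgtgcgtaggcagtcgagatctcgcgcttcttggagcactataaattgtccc
Rpl41 (chr10:128549139-128549238, minus strand): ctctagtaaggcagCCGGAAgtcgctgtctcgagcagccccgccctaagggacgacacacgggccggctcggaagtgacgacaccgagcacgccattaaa
Rpsa (chr9:120127696-120127795, plus strand): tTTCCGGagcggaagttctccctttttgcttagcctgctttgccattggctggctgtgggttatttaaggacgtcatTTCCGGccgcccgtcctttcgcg
Rpl15 (chr14:18270957-18271056, minus strand): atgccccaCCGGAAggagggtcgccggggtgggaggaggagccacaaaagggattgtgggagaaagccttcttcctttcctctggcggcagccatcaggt
Rpl23 (chr11:97782410-97782509, minus strand): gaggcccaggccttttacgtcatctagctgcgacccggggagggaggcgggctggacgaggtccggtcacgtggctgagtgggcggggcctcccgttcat
A promoter window of 300 bases was available for 61 of the 86 genes. CCGGAA was present on either strand in 33 of the 61 (54.1%), against 16.7% of the 27025 genes with a window. The annotated start was a C followed by 4 bases that were all C or T in 13 of the 61 (21.3%), against 3.01% of all genes. Among the 6 shown, Rps27 and Rpl15 begin this way, and CCGGAA was not in the printed stretch of Rps2 and Rpl23. A C followed by 4 C or T bases was found within 10 bases before to 15 after the annotated start in 38 of the 61 (62.3%). Over all genes this share was 34.4%. CTTTCC, searched on both strands and overlapping the ETS core where it reads CTTTCCGG, was in 50.8% of the 61 windows and in 29.3% of all. A match describes the letters and shows no bound factor.

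Compared per kilobase of exon, most of these genes lay near the top of the transcriptome. Over all 15 libraries the 4 highest were Rps12 at 1881 CPM per kb, Rps3a1 at 1592, Rpl41 at 1545 and Rpl12 at 1389.8 CPM per kb. Among the 76 genes with at least 1000 reads, the lowest were Rps6 at 63.3 CPM per kb, Rps15a at 62.8, Rpl21 at 52.4, Rpl7l1 at 32.5 and Rpl29 at 28.4 CPM per kb. Even Rpl29 exceeded 77.5% of the 10993 genes with that many reads. The exon lengths behind these values are the authors', and some are long for a ribosomal protein gene, such as 5136 bases for Rps15a and 2889 bases for Rpl21. Many ribosomal protein genes also have near-identical retrocopies in the genome, and how reads matching several places were counted is not given in the sources used here, so the order between genes is uncertain. The tables list 301 named pseudogenes of these proteins, of which 2 had reads (Rpl31-ps12 and Rpl34-ps1), at 0.110 to 0.234 reads per 100 reads on the 86 genes.

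The order at the top differed between groups. Rps12 averaged 1581 ± 85.2 CPM per kb in 5-FU day4 libraries and 1675 ± 29.8 CPM per kb in Untreated libraries (SD, n = 4 each). Rps3a1 averaged 1491 ± 65.7 CPM per kb in 5-FU day4 libraries and 1758 ± 54.8 CPM per kb in Untreated libraries. Rps12 was thus above Rps3a1 in 5-FU day4 libraries and below it in Untreated libraries, in both by little more than the spread between replicates. In culture Rps12 was first, at 2041 ± 200.02 CPM per kb in Nifedipine libraries (n = 4) and 2339 ± 8.88 in Control libraries (SD, n = 3). Within a group, the 76 genes varied little between libraries. Their median coefficient of variation was 5.06% in 5-FU day4, 4.03% in Untreated, 7.62% in Nifedipine and 4.29% in Control libraries, against 8.46%, 10.2%, 8.95% and 8.02% over all genes with at least 1000 reads. Those genes were not matched to the 76 for level, and counts vary less at high levels.

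The 86 genes together took 3.36% to 3.68% of exon reads in 5-FU day4 libraries and 3.67% to 3.78% in Untreated libraries (means 3.54 ± 0.135% and 3.74 ± 0.0497%, SD, n = 4 each). They took 3.55% to 3.98% in Nifedipine libraries and 3.55% to 3.65% in Control libraries (means 3.85 ± 0.202%, n = 4, and 3.61 ± 0.0498%, n = 3). Counting error was small: the widest 95% Wilson interval of a library was 0.0148 percentage points to either side. The lowest Nifedipine value, 3.55%, came from replicate 2, in which exon reads were also a smaller part of the read total used for the authors' RPKM (31.8%, against 37.1% to 38.4% in the other 3). That part differed between groups, at 30.01% to 31.9% in 5-FU day4, 24.96% to 26.3% in Untreated and 35.5% to 38.9% in Control libraries. Taken over this larger total, the genes held 1.10 ± 0.0597% in 5-FU day4 libraries and 0.955 ± 0.0261% in Untreated libraries. The direction of the difference between 5-FU day4 and Untreated libraries therefore depended on the denominator. With reads divided by exon length, the share was 12.9 ± 0.408% in 5-FU day4 and 14.5 ± 0.177% in Untreated libraries, and 13.6 ± 0.458% in Nifedipine and 12.5 ± 0.132% in Control libraries. These shares are descriptions and carry no test.

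**Figure D1:**
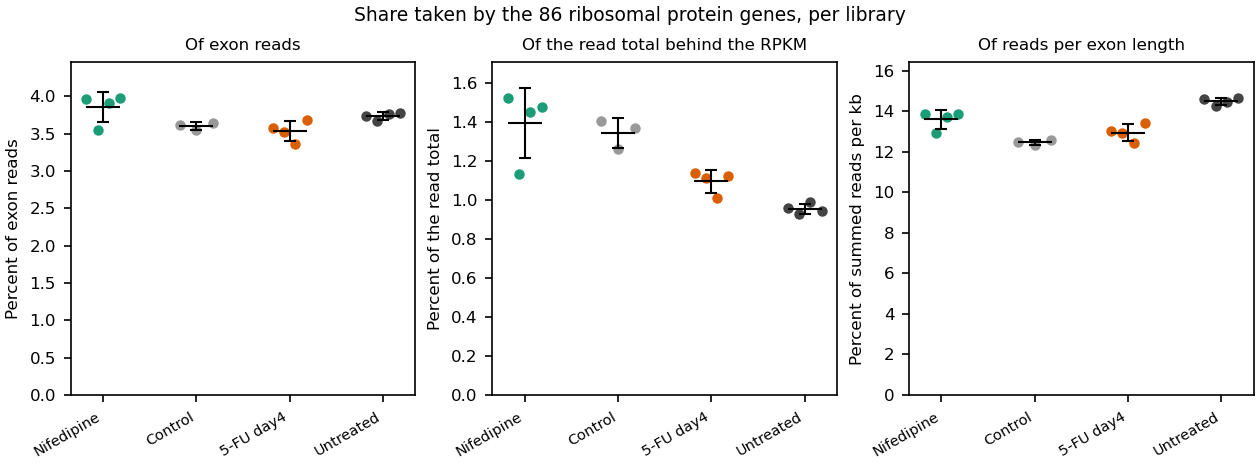
Share taken by the 86 genes in each library (dots), with the group mean and SD (bars): percent of exon reads, percent of the read total behind the authors' RPKM values, and percent of summed reads per kilobase of exon. 5-FU day4 libraries lie below Untreated libraries on average in the first panel (3.54% and 3.74%) and above them in the second (1.10% and 0.955%).

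The small subunit held 43.7% to 44.4% of the reads on the 86 genes in 5-FU day4 libraries and 44.4% to 45.02% in Untreated libraries. It held 43.5% to 44.0% in Nifedipine libraries and 42.5% to 42.7% in Control libraries.

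At day 4 after 5-FU, as many ribosomal protein genes were higher as lower with TMM scaling, but most were lower (57 of 77, against 23.3% of all genes) with a correction for exon length and most were higher (44 of 77, against 38.5% of all genes) when scaled to the RPKM read total. With TMM, of the 77 genes tested, 17 were higher and 17 lower than in Untreated HSCs, or 22.1% each, while 26.8% of all 13382 genes tested were higher and 23.8% lower (50.5% in all). The median log2 fold change was 0.02 over the 77 genes and -0.02 over all genes. No gene with at least 1000 reads changed by more than 2-fold, and 64 of 76 changed by less than 1.2-fold. The libraries of both groups did not overlap for 13 genes that were higher and 20 that were lower, against 24.1% and 23.3% of all genes. The small subunit had 5 genes higher and 7 lower of 31 tested, and the large subunit 12 and 10 of 46, which the length correction turned to 2 and 24, and 2 and 33.

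Rps27, a zinc-finger protein of the small subunit, fell most. Its level was 217, 209, 211 and 239 CPM in 5-FU day4 libraries and 343, 333, 324 and 344 CPM in Untreated libraries (log2 fold change -0.59 ± 0.05 (SE), edgeR adjusted p = 1.52e-05). All 4 libraries after 5-FU lay below all 4 Untreated ones. Rps14, a small-subunit protein whose human gene lies in the region lost in a myelodysplastic syndrome, had 389.9, 397, 349 and 416 CPM in 5-FU day4 and 496, 484, 499.7 and 547 CPM in Untreated libraries (log2 fold change -0.36 ± 0.06 (SE), edgeR adjusted p = 0.000758). Smaller falls were found for Rpl21 (-0.30), Rps21 (-0.29), Rps9 (-0.26) and Rpl38 (-0.27 on the log2 scale), the last known in mice for its part in translating Hox messenger RNAs.

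Rpl41, which encodes the smallest ribosomal protein, rose most. It had 735, 730.3, 600.1 and 708 CPM in 5-FU day4 libraries and 445, 434, 511 and 484 CPM in Untreated libraries (log2 fold change 0.59 ± 0.08 (SE), edgeR adjusted p = 0.000107). Rpsa, a small-subunit protein also known as the laminin receptor, had 1239, 1189, 1234 and 1254 CPM in 5-FU day4 and 912, 941, 1059.5 and 905 CPM in Untreated libraries (log2 fold change 0.39 ± 0.05 (SE), edgeR adjusted p = 0.000128). Rps2, a protein beside the entry channel of the messenger RNA, had 228, 239, 221 and 249 CPM in 5-FU day4 and 182, 183, 186 and 179.8 CPM in Untreated libraries (log2 fold change 0.39 ± 0.05 (SE), edgeR adjusted p = 0.000147). In these 3 genes every 5-FU day4 library was above every Untreated one. Large-subunit genes rose as well: Rpl29 by 0.48, Rpl27 by 0.40 and Rpl15 by 0.33 on the log2 scale (edgeR adjusted p = 0.001, 0.00253 and 0.0013).

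Of these genes, some kept their call when libraries were scaled in other ways and others did not. Under 4 scalings (TMM, the RPKM read total, a correction for exon length and the reads on the 86 genes themselves), Rps27 was called lower each time, at -0.59, -0.39, -1.13 and -0.59. The scaling to the reads on the 86 genes was chosen after seeing the data. Its median over the 77 genes was 0.02, as with TMM. Rpsa, Rpl15, Rpl29 and Rps15a were called higher in all 4. These are 4 genes higher and 1 lower of 77 in all 4 scalings, against 23.3% and 13.5% of all genes. Rpl41 and Rps2 were not called once exon length was corrected for (log2 fold changes 0.11 and 0.10). This correction acts through the authors' exon lengths, 5136 bases for Rps15a against a median of 795 over the 77 genes. It moved Rps15a from 0.16 to 0.23, Rpl15 from 0.33 to 0.23 and Rpl29 from 0.48 to 0.34. How far a kept call rests on exon length was not tested. The RPKM read total moved the median of all genes from -0.02 to 0.17. With it, 44 genes were called higher and 1 lower, against 38.5% and 13.7% of all genes. With the length correction, 4 were called higher and 57 lower, against 26.3% and 23.3% of all genes.

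**Figure D2:**
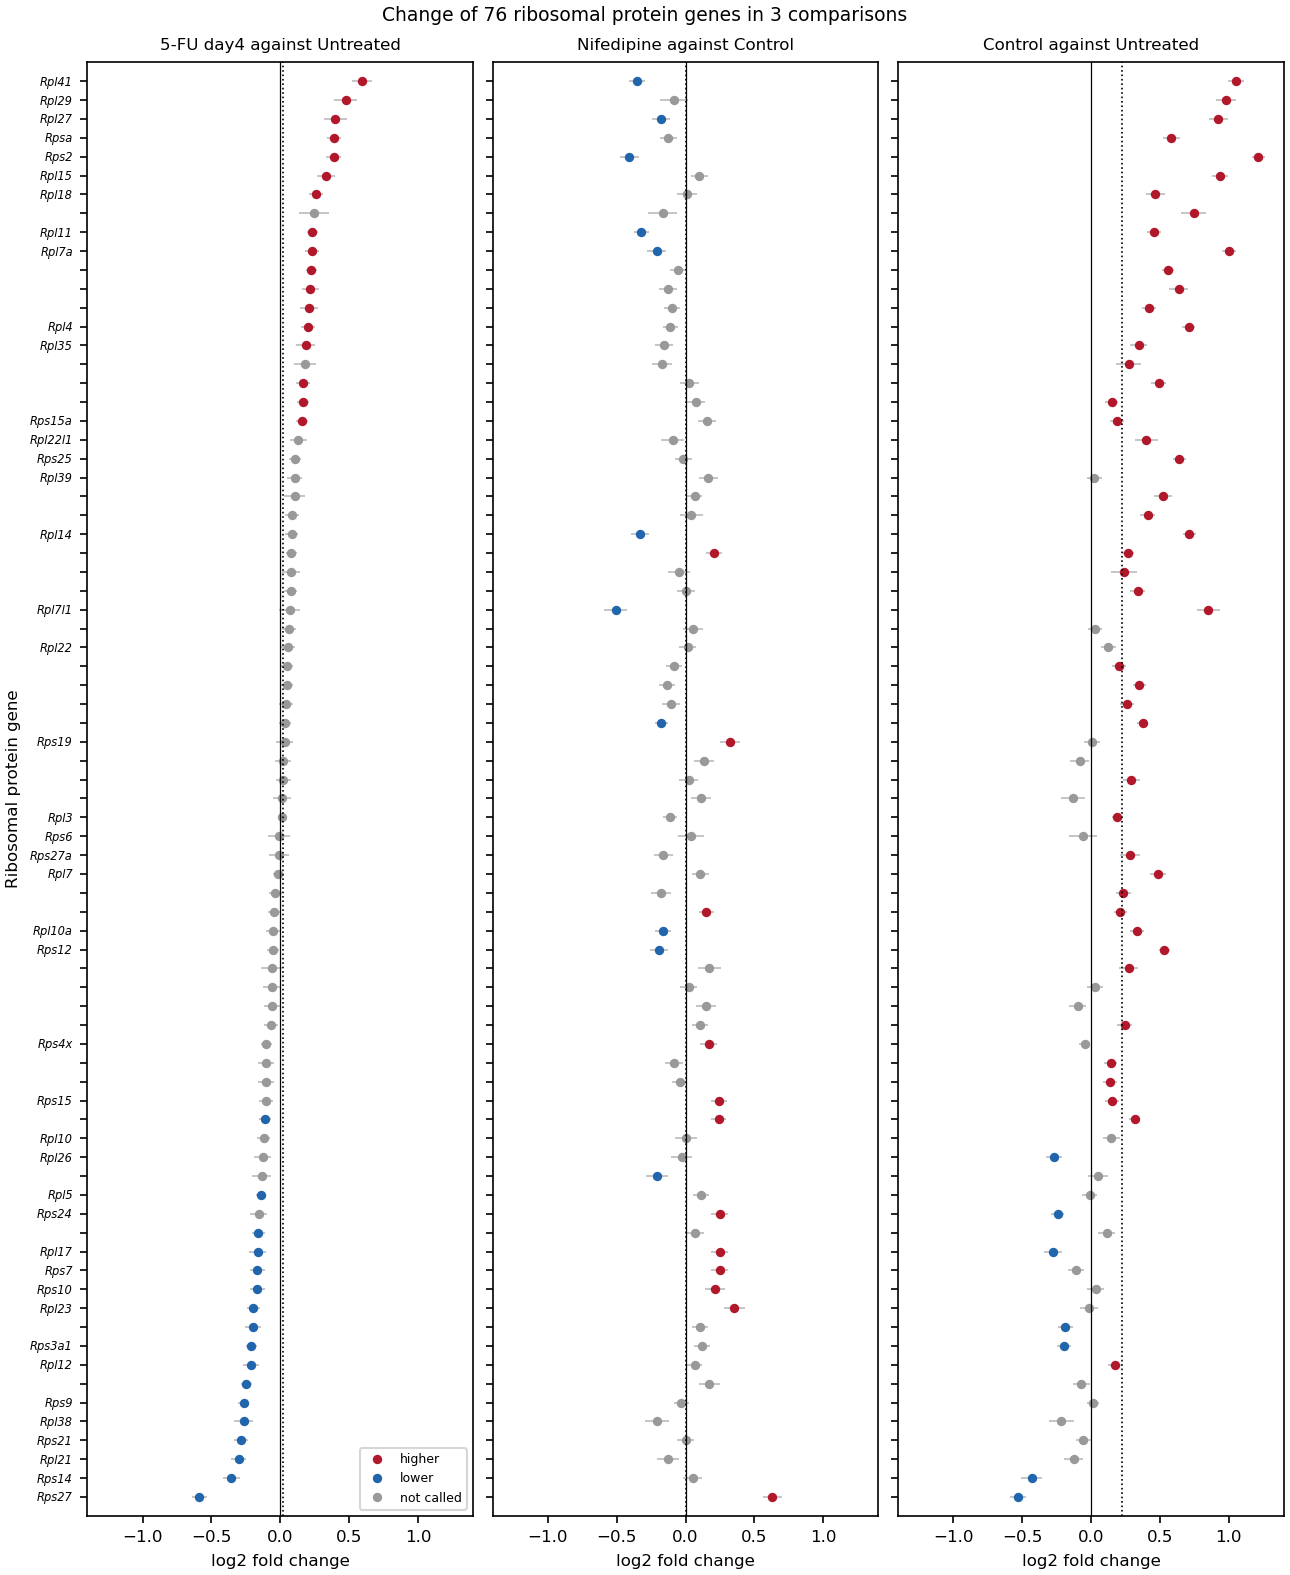
Log2 fold change with its standard error (edgeR) of the 76 ribosomal protein genes with at least 1000 reads, in rows ordered by the change after 5-FU, for 5-FU day4 against Untreated, Nifedipine against Control and Control against Untreated. Red and blue dots passed an adjusted p of 0.05, the dotted line is the median of the 76 genes, and rows of genes named in the text carry their symbol. Rps27 stands at the low end in the left and right panels (-0.59 and -0.53) and at the high end in the middle one (0.63).

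Among proteins with a known regulatory part, Rpl5 and Rpl11, which bind MDM2 together with the 5S ribosomal RNA and so raise p53, moved in opposite directions after 5-FU. Rpl11 had 505, 485, 461 and 489 CPM in 5-FU day4 and 414, 417, 422 and 431 CPM in Untreated libraries (log2 fold change 0.23 ± 0.04 (SE), edgeR adjusted p = 0.00103). Rpl5 had 2036, 1996, 1881 and 2085 CPM in 5-FU day4 and 2267, 2168, 2215 and 2339 CPM in Untreated libraries (log2 fold change -0.14 ± 0.04 (SE), edgeR adjusted p = 0.0108). The libraries did not overlap for either gene. Rpl23, another MDM2-binding protein, had 129, 124, 122 and 128 CPM in 5-FU day4 and 144, 148, 146 and 149 CPM in Untreated libraries (log2 fold change -0.19 ± 0.05 (SE), edgeR adjusted p = 0.00497). None of the 3 was called in the same direction under all 4 scalings. Rps6, the substrate of the S6 kinases, had a log2 fold change of -0.01 (edgeR adjusted p = 0.952), and Rps19, the gene most often mutated in Diamond-Blackfan anaemia, had 0.03 (adjusted p = 0.687). Rps25, Rps27a and Rpl10a did not pass the test either (0.11, -0.01 and -0.05).

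In cultured HSCs, Rps27 was higher and Rps2 lower with nifedipine, and with TMM most of these genes did not pass the test. Of 77 genes tested, 12 were higher and 11 lower with nifedipine (15.6% and 14.3%), while 25.8% of all 12805 genes tested were higher and 24.2% lower (49.9% in all). The median was 0.00 over the 77 genes and 0.02 over all genes. The libraries did not overlap for 10 genes that were higher and 16 that were lower, against 25.7% and 25.5% of all genes. The small subunit had 9 genes higher and 2 lower of 31 tested, and the large subunit 3 and 9 of 46. With the length correction both subunits had more genes higher than lower, at 18 and 1 for the small and 16 and 4 for the large one. The count over both depended on 1 library: without Nifedipine replicate 2, 23 genes were called higher and 9 lower. Over all genes, the fits with 1 library left out gave 2876 to 3110 higher and 2727 to 3025 lower. With the length correction, 34 of the 77 genes were called higher and 5 lower, against 24.1% and 25.6% of all genes. With the RPKM read total 8 were higher and 5 lower, against 24.9% and 17.9% of all genes.

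Rps27 had 357, 320.0, 335 and 379 CPM in Nifedipine libraries and 239, 223 and 213 CPM in Control libraries (log2 fold change 0.63 ± 0.07 (SE), edgeR adjusted p = 5.8e-07). The lowest Nifedipine library was above the highest Control library. Rpl23 had 188, 184, 156 and 188 CPM in Nifedipine and 151, 138 and 130.4 CPM in Control libraries (log2 fold change 0.35 ± 0.08 (SE), edgeR adjusted p = 0.000951). Rps19 had 262, 228, 230.0 and 280.0 CPM in Nifedipine and 198, 197 and 205 CPM in Control libraries (log2 fold change 0.32 ± 0.07 (SE), edgeR adjusted p = 0.00133). Neither gene's libraries overlapped. In all, 8 of the 77 genes were called higher under all 4 scalings, against 21.4% of all genes. They include these 3 genes and Rpl17, Rps7, Rps15 and Rps24 (log2 fold changes 0.25, 0.25, 0.24 and 0.25).

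Rps2 had 289.7, 284, 308 and 352 CPM in Nifedipine and 396, 409.8 and 422 CPM in Control libraries (log2 fold change -0.41 ± 0.07 (SE), edgeR adjusted p = 9.36e-05). Rpl41 had 744, 654, 785 and 759 CPM in Nifedipine and 927, 932 and 958 CPM in Control libraries (log2 fold change -0.35 ± 0.06 (SE), edgeR adjusted p = 8.92e-05). Rpl11 had 458, 441, 443 and 443 CPM in Nifedipine and 529, 591 and 555 CPM in Control libraries (log2 fold change -0.32 ± 0.06 (SE), edgeR adjusted p = 9.78e-05). For all 3, every Nifedipine library was below every Control library. Rpl14 (-0.33) and Rpl7l1 (-0.51 on the log2 scale) fell as well, and these 5 genes were called lower under all 4 scalings, against 17.6% of all genes. Rpsa, Rpl15 and Rpl29, which rose after 5-FU, had log2 fold changes of -0.13, 0.10 and -0.08 with nifedipine and did not pass the test.

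**Figure D3:**
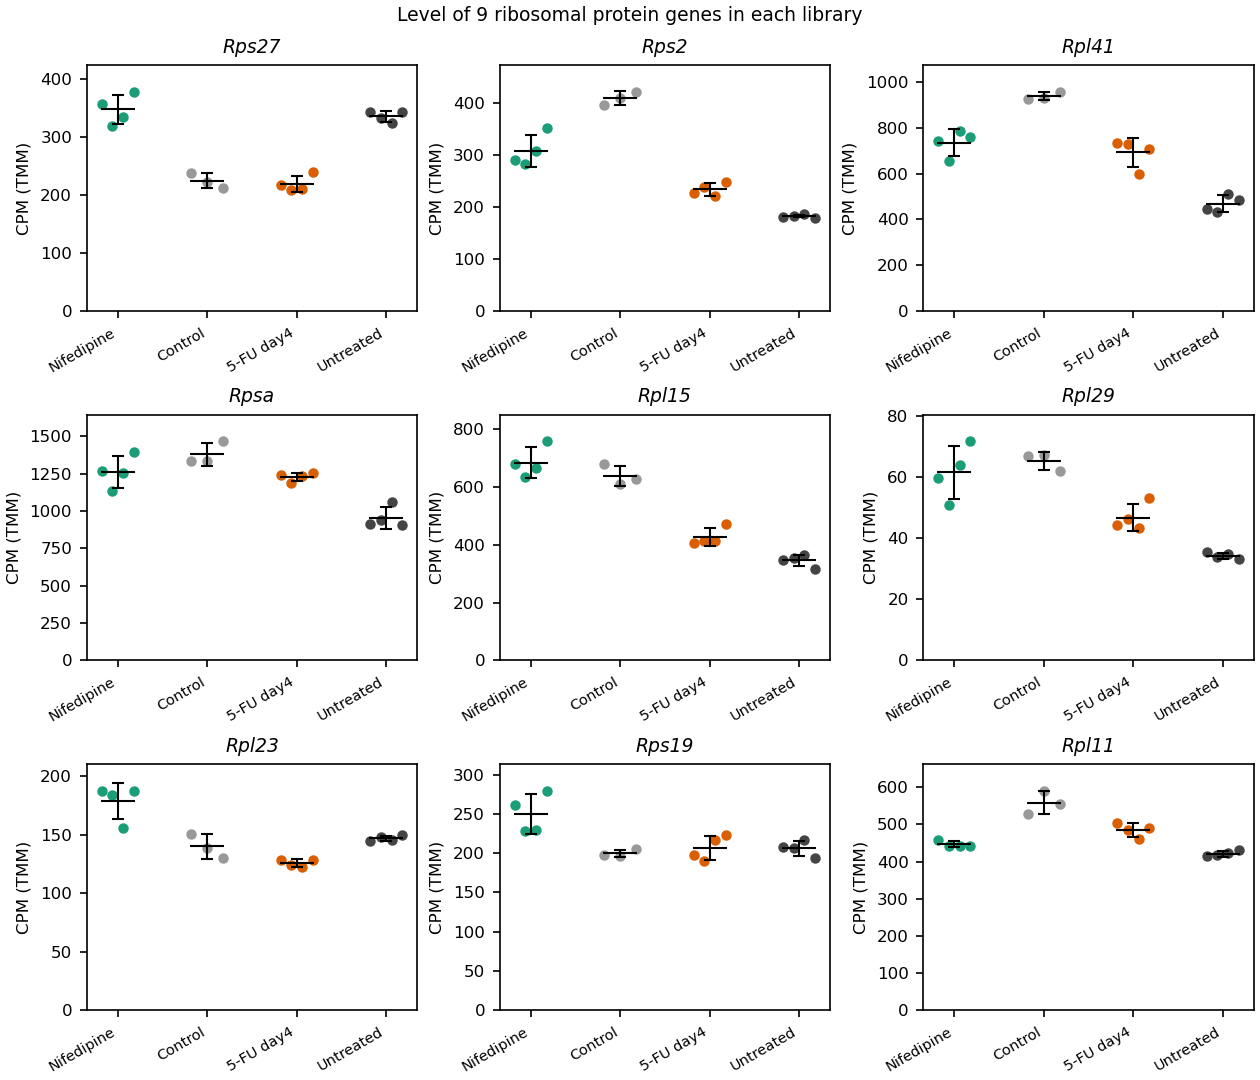
CPM (TMM-scaled) of 9 ribosomal protein genes in each library (dots), with the group mean and SD (bars), for Nifedipine, Control, 5-FU day4 and Untreated. Rps27 is high in Nifedipine and Untreated libraries (320.0 to 379 and 324 to 344 CPM) and low in Control and 5-FU day4 libraries (213 to 239 and 209 to 239 CPM), while Rps2 and Rpl41 are highest in Control libraries.

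The comparison of Control cultures with fresh Untreated HSCs gave larger changes, mostly positive with TMM. Control cells were cultured and Untreated cells were not. Whether experiment or library preparation also differed is not given in the sources used here, and such differences could not be told apart from culture. The Control and Untreated libraries are those used as the reference above. Of 77 genes, 47 were higher and 7 lower in Control libraries (61.0% and 9.09%), while 35.8% of all 13518 genes tested were higher and 36.2% lower (72.0% in all). The median was 0.21 over the 77 genes and -0.05 over all genes. The libraries did not overlap for 44 genes that were higher and 12 that were lower, against 34.6% and 37.4% of all genes. Under the length correction the split turned to 12 higher and 49 lower, against 37.1% and 34.1% of all genes, with a median of -0.34; with the RPKM read total it was 61 and 2, against 43.3% and 28.4%.

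Rps2 had 396, 409.8 and 422 CPM in Control and 182, 183, 186 and 179.8 CPM in Untreated libraries (log2 fold change 1.22 ± 0.05 (SE), edgeR adjusted p = 4.31e-08). Rpl41 had 927, 932 and 958 CPM in Control and 445, 434, 511 and 484 CPM in Untreated libraries (log2 fold change 1.05 ± 0.06 (SE), edgeR adjusted p = 2.7e-07). Rpl7a had 505, 472 and 493 CPM in Control and 259.7, 253, 249 and 252 CPM in Untreated libraries (log2 fold change 1.00 ± 0.05 (SE), edgeR adjusted p = 1.32e-07). Of the 76 genes, these 3 changed by more than 2-fold in this comparison. Rpl29, Rpl15 and Rpl27 rose by 0.98, 0.94 and 0.93 on the log2 scale. With Rpsa, Rpl4, Rpl14 and Rpl7l1 (0.58, 0.71, 0.71 and 0.85), these 10 genes were called higher under all 4 scalings, against 26.3% of all genes. Against them, Rps27 had 239, 223 and 213 CPM in Control and 343, 333, 324 and 344 CPM in Untreated libraries (log2 fold change -0.53 ± 0.06 (SE), edgeR adjusted p = 2.87e-05), and Rps14 had 379, 387 and 322 CPM in Control and 496, 484, 499.7 and 547 CPM in Untreated libraries (log2 fold change -0.43 ± 0.07 (SE), edgeR adjusted p = 0.000567). Both were called lower under all 4 scalings, against 27.1% of all genes. Rpl17, Rpl26 and Rps24 were lower with TMM (-0.27, -0.27 and -0.24).

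Log2 fold change moved with exon length in all 3 comparisons. The tested ribosomal protein genes had a median exon length of 795 bases (346 to 5136), against 3495.5 bases over all genes tested after 5-FU, and 51 of the 77 were at most 1000 bases long. Among all other genes the median log2 fold change after 5-FU was 0.75 for exon lengths up to 500 bases, 0.35 for 500 to 1000, 0.15 for 1000 to 2000 and -0.20 for over 8000 bases. In the class of 500 to 1000 bases, 41 ribosomal protein genes had a median of -0.05, beside 0.35 for 512 other genes. With nifedipine the trend ran the other way, at -0.17 for 498 other genes of 500 to 1000 bases and 0.16 for those over 8000 bases, and the 41 ribosomal protein genes of that class had a median of -0.02. In Control against Untreated libraries the same class had a median of 0.20 for 41 ribosomal protein genes and 0.60 for 521 other genes. Whether the trend with length lies in the RNA or in the libraries was not tested.

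**Figure D4:**
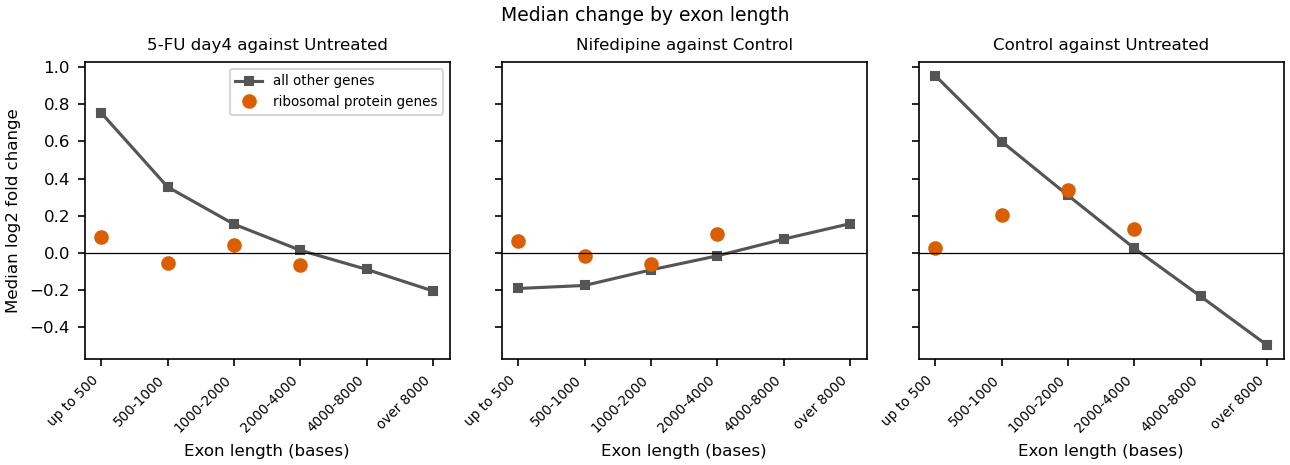
Median log2 fold change of all other tested genes (squares) and of the ribosomal protein genes (circles, classes with at least 5 of them) by exon length in bases, for the 3 comparisons. In the class of 500 to 1000 bases the ribosomal protein genes lie below the other genes after 5-FU (-0.05 and 0.35) and in Control against Untreated (0.20 and 0.60), and above them with nifedipine (-0.02 and -0.17).

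The 5-FU and nifedipine comparisons share no library, and 11 genes were called in both. Of the genes with at least 1000 reads, 5 were higher after 5-FU and lower with nifedipine (Rpl11, Rpl27, Rpl41, Rpl7a and Rps2), 6 were lower after 5-FU and higher with nifedipine (among them Rpl17, Rpl23, Rps10, Rps27 and Rps7), and none was called the same way in both. These counts are from TMM. With the length correction 0 genes were higher after 5-FU and lower with nifedipine and 31 the reverse. Rpl14 and Rpl15 were then called the same way in both. Over 12500 other genes, this correction gave 2040 higher after 5-FU and lower with nifedipine and 1341 the reverse. It gave 365 other genes higher and 173 lower in both. With the RPKM read total the counts were 5 and 1, and Rps19 was called higher in both. Over 12494 other genes, the RPKM read total gave 1847 and 934, with 627 higher and 55 lower in both. The nifedipine calls of Rpl27 and Rpl7a and the 5-FU call of Rpl17 were lost when single libraries were left out. Across the 76 genes the log2 fold changes had a Pearson correlation of -0.51 and a Spearman correlation of -0.44; within a comparison the genes share their libraries and scaling, so this is a description. Over the 12500 other genes tested in both comparisons the correlations were -0.30 and -0.46, so an opposite direction was common outside the ribosomal proteins too. Among those genes, 2025 were higher after 5-FU and lower with nifedipine and 1528 the reverse, against 383 higher and 166 lower in both. With the length correction the correlations over the 76 genes were -0.54 and -0.49, beside -0.28 and -0.44 over the 12500 other genes.

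**Figure D5:**
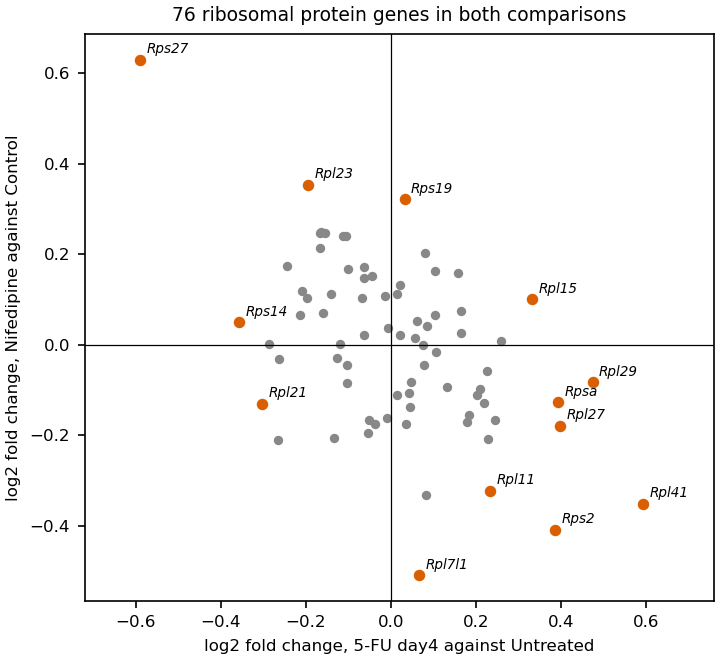
Log2 fold change of 76 ribosomal protein genes after 5-FU (against Untreated, horizontal axis) and with nifedipine (against Control, vertical axis), 1 dot per gene, with the named ones in orange. Rps27 lies alone at the upper left (-0.59 and 0.63), and Rps2 (0.39 and -0.41) and Rpl41 (0.59 and -0.35) at the lower right.

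Paralogs of several ribosomal proteins are restricted to other tissues or replace their partner in some ribosomes. Rps27l, a p53 target that encodes a near copy of Rps27 and was left out by the naming rule, had 93.4, 84.7, 72.7 and 82.7 CPM in 5-FU day4 and 37.1, 33.1, 42.1 and 36.2 CPM in Untreated libraries (log2 fold change 1.19 ± 0.10 (SE), edgeR adjusted p = 9.22e-06). Its direction was opposite to that of Rps27 in the same libraries. In Control libraries Rps27l had 159, 153 and 135 CPM, against the same Untreated values (log2 fold change 2.05 ± 0.09 (SE), edgeR adjusted p = 8.13e-08), again opposite to Rps27. With nifedipine Rps27l had 136, 122, 139 and 155 CPM in Nifedipine libraries, overlapping the Control values (log2 fold change -0.11 ± 0.08 (SE), edgeR adjusted p = 0.298). How reads matching both genes were assigned is not given in the sources used here.

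Rpl22 and Rpl22l1 form a pair in which, in mice, Rpl22 represses its paralog. Rpl22 averaged 322 ± 19.5 CPM in 5-FU day4 and 315 ± 3.68 CPM in Untreated libraries, and 336 ± 12.2 CPM in Nifedipine and 332 ± 22.3 CPM in Control libraries (SD). The log2 ratio of Rpl22l1 to Rpl22 was -1.06 ± 0.05 in 5-FU day4 and -1.14 ± 0.10 in Untreated libraries (SD, n = 4 each; exact two-sided permutation test, p = 0.229, adjusted over 3 comparisons 0.343). It was -0.98 ± 0.12 in Nifedipine (n = 4) and -0.87 ± 0.18 in Control libraries (n = 3), with exact permutation p = 0.4 and adjusted p = 0.4. In Control against Untreated libraries the ratio differed by 0.27, with exact permutation p = 0.114 and adjusted p = 0.343. With 4 libraries in each group, the smallest p this test allows is 0.0286. With 4 against 3 libraries its smallest two-sided p is above 0.05, so the comparisons that include Control libraries could not have passed. Rpl7l1, related to Rpl7, was lower with nifedipine, at 77.1, 80.0, 90.8 and 93.4 CPM in Nifedipine and 123, 113 and 129 CPM in Control libraries (log2 fold change -0.51 ± 0.08 (SE), edgeR adjusted p = 5.56e-05). Rpl7 itself had a log2 fold change of 0.11 with nifedipine (edgeR adjusted p = 0.172). The abundant partners Rpl3, Rpl10, Rpl39 and Rps4x did not pass the test after 5-FU (0.01, -0.12, 0.11 and -0.10), Rps4x at an edgeR adjusted p of 0.0501. Their paralogs Rpl3l, a muscle form, and Rpl10l and Rpl39l, forms of the male germ line, stayed near 0: Rpl3l had 11 reads in 5-FU day4, 8 in Untreated, 24 in Nifedipine and 17 in Control libraries together.

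The 17 genes of the list known from human Diamond-Blackfan anaemia gave 6 higher and 4 lower after 5-FU (median 0.03), 5 higher and 2 lower with nifedipine (median 0.10), and 8 higher and 3 lower in Control against Untreated libraries (median 0.03). Over all genes tested the shares higher and lower were 26.8% and 23.8% after 5-FU, 25.8% and 24.2% with nifedipine, and 35.8% and 36.2% in Control against Untreated libraries. With the length correction the 17 genes gave 1 higher and 11 lower after 5-FU, 11 and 1 with nifedipine, and 2 and 12 in Control against Untreated libraries, and with the RPKM read total 10 and 1 after 5-FU. With TMM, after 5-FU the higher ones included Rpl11, Rpl15, Rpl18, Rpl27 and Rpl35, and the lower ones were Rpl5, Rps7, Rps10 and Rps27. The 7 ribosomal protein genes that the naming rule misses include Rplp0, Rplp1 and Rplp2 of the stalk, Fau, which is made as a fusion with a ubiquitin-like protein, Rpl36al, and Rack1, a scaffold on the small subunit. After 5-FU, 2 were higher (Rpl36al 0.59 and Rplp0 0.15) and 1 was lower (Fau -0.23). With nifedipine, 2 were lower (Rpl36al -0.32 and Rplp1 -0.22). The shares over all genes are those just given. The length correction turned these counts to 0 higher and 5 lower after 5-FU and to 4 higher and 0 lower with nifedipine, and with the RPKM read total 0 of the 7 were called with nifedipine.

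Lists of genes that act on ribosomal proteins or share their TOP tract had these counts, beside the background shares given above. Of 12 genes listed as chaperones or assembly partners, 8 were higher and 0 lower after 5-FU (median 0.57), 0 higher and 9 lower with nifedipine (median -0.63), and 11 higher and 0 lower in Control against Untreated libraries (median 1.18). Among them, Ncl, which encodes nucleolin, changed by 0.74 after 5-FU and by -1.29 with nifedipine, and Heatr3, an importer of Rpl5, by 0.85 and -0.76. Of 19 translation factors and other TOP messenger RNAs, 11 were higher and 5 lower after 5-FU (median 0.22), and 3 higher and 9 lower with nifedipine (median -0.17). Npm1 (1.04 and -1.03) and Eef1g (0.51 and -0.33) followed the majority, and Tpt1 went the other way (-0.17 and 0.59). Of 15 regulators of TOP translation, 7 were higher and 0 lower after 5-FU and 2 higher and 8 lower with nifedipine, with Larp1, the TOP-binding repressor, at 0.55 and -0.64. The 77 mitochondrial ribosomal proteins, which form a separate ribosome, gave 59 higher and 0 lower after 5-FU (median 0.51) and 0 higher and 57 lower with nifedipine (median -0.47), where the 77 cytosolic genes gave 17 and 17, and 12 and 11. With the length correction the mitochondrial genes gave 39 higher and 0 lower after 5-FU (median 0.34) and 0 higher and 48 lower with nifedipine (median -0.40). Their median exon length is 1324 bases, against 795 for the cytosolic genes. The difference between these lists was not tested.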

How the data were processed

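Each library has a deposited table of features with the authors' total exon reads, whole-number counts per feature per the file headers, and an RPKM value, which the authors scaled by exon length and a read total. The genome build was mm10 per the submitters' processing notes; which aligner and counter were used is not given in the sources used here, and the library kit does not mark strand. Copies of a gene on scaffolds were added up. Exon lengths and the read total were recovered from counts and RPKM values; the RPKM values were used for nothing else. Genes were tested with edgeR 4.0.16 (quasi-likelihood test, TMM, default filter, Benjamini-Hochberg adjustment over all genes tested, called at 0.05), each comparison on its own libraries. CPM values use TMM factors over all 15 libraries. Alternatives used other scalings, limma 3.58.1, DESeq2 1.42.0, no filter, a replicate block and each library left out; scaling to the reads on the 86 genes was chosen after seeing the data. The test was also tried on simulated counts built from the levels and spread of these libraries. The genes and lists were chosen with earlier results of these data known. Genes were named by rule: in each comparison the 5 called genes with the largest change and the 3 with the smallest p in each direction, known paralogs and regulatory members, and the 5 highest and lowest per length; other genes named were chosen after their values were seen. A few genes that this rule or a list holds are not reported here. Promoter sequences are from RefSeq, GRCm38.p6. Depth was 6171730 to 26673045 exon reads per library, and intervals cover counting error only.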

Additional observations from a re-analysis of the deposited data

Results flagged for a closer look

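In 11 of 138 groups of 4 libraries examined, 1 library stood apart from the other 3, with a gap above Dixon's 95% critical value; chance gives about 1 in 20. Rpl3 was lowest in Nifedipine replicate 2, at 1242 CPM, against 1335 to 1344 CPM in the other 3. Rpl11 was highest in Nifedipine replicate 1, at 458 CPM, against 441 to 443 CPM in the other 3. Rpl23 was lowest in Nifedipine replicate 3, at 156 CPM, against 184 to 188 CPM in the other 3. Fau was lowest in Nifedipine replicate 2, at 209 CPM, against 233 to 237 CPM in the other 3. Rpl27 was highest in Nifedipine replicate 4, at 214 CPM, against 187 to 189 CPM in the other 3. Rpl22 was lowest in 5-FU day4 replicate 3, at 293 CPM, against 329.7 to 334 CPM in the other 3. Rpl15 was highest in 5-FU day4 replicate 4, at 472 CPM, against 407 to 414 CPM in the other 3. Rps3a1 was lowest in 5-FU day4 replicate 3, at 1314 CPM, against 1429 to 1449 CPM in the other 3. Rps15a was highest in 5-FU day4 replicate 4, at 329 CPM, against 315 to 317 CPM in the other 3. Fau was lowest in Untreated replicate 2, at 214 CPM, against 229.6 to 232 CPM in the other 3. Rpl12 was lowest in Untreated replicate 2, at 815 CPM, against 889.8 to 903 CPM in the other 3. The Control group, with 3 libraries, was not examined.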

How the results depend on the processing

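Changes of named genes turned direction under other library sizes or a length correction, among them Rps12, Rpl7, Rpl11, Rpl22l1 and Rpl10a, which were called higher in Control against Untreated with TMM; the cause was not tested, and the log2 fold changes that reversed were these. Scaled to the RPKM read total, 5-FU day4 against Untreated gave Rpl7 0.19, Rpl5 0.059, Rpl23 0.0047, Rpl10a 0.15 and Rpl17 0.036. Scaled to the RPKM read total, Control against Untreated gave Rps4x 0.19, Rpl5 0.23, Rpl23 0.22, Rps21 0.19 and Rps3a1 0.047. Under the length correction, 5-FU day4 against Untreated gave Rpl22l1 -0.29, Rpl39 -0.38, Rpl3 -0.17, Rpl11 -0.068, Rps19 -0.26, Rps25 -0.27, Rplp0 -0.061, Rack1 -0.18, Rpl14 -0.22 and Rpl7a -0.029. Under the length correction, Nifedipine against Control gave Rps25 0.14. Under the length correction, Control against Untreated gave Rpl22l1 -0.28, Rpl39 -0.74, Rpl3 -0.14, Rpl7 -0.025, Rpl10 -0.42, Rpl11 -0.047, Rps19 -0.49, Rps27a -0.27, Rpl10a -0.13, Rplp1 -0.55, Rplp2 -0.48, Rack1 -0.14, Rps9 -0.34, Rps12 -0.17 and Rpl12 -0.47. Corrected for length and GC, 5-FU day4 against Untreated gave Rpl22l1 -0.36, Rpl39 -0.41, Rpl3 -0.15, Rpl11 -0.046, Rps19 -0.26, Rps25 -0.27, Rplp0 -0.038, Rack1 -0.20, Rpl14 -0.16 and Rpl7a -0.017. Corrected for length and GC, Nifedipine against Control gave Rps25 0.15. Corrected for length and GC, Control against Untreated gave Rpl22l1 -0.49, Rpl39 -0.81, Rpl3 -0.12, Rpl7 -0.21, Rpl10 -0.58, Rpl11 -0.0047, Rps19 -0.52, Rps27a -0.47, Rpl10a -0.17, Rplp1 -0.36, Rplp2 -0.36, Rack1 -0.20, Rps9 -0.33, Rps12 -0.36 and Rpl12 -0.48. Scaled to the reads on the 86 genes, a choice made after seeing the data, Control against Untreated gave Rpl39 -0.23, Rpl3 -0.062, Rps19 -0.25, Rplp1 -0.062, Rplp2 -0.097, Rps9 -0.24, Rpl12 -0.080 and Rps15a -0.066.

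Counts of the 77 tested genes moved by over 1.5 times, or their median by over the standard error of a gene, as follows. Scaled to the RPKM read total, 5-FU day4 against Untreated gave 44 higher, 1 lower, 1839 lower over all genes and a median of 0.21, and Nifedipine against Control gave 5 lower, and Control against Untreated gave 2 lower and a median of 0.45. Under the length correction, 5-FU day4 against Untreated gave 4 higher, 57 lower and a median of -0.32, and Nifedipine against Control gave 34 higher, 5 lower and a median of 0.14, and Control against Untreated gave 12 higher, 49 lower and a median of -0.34. Corrected for length and GC, 5-FU day4 against Untreated gave 6 higher, 59 lower and a median of -0.33, and Nifedipine against Control gave 37 higher, 5 lower and a median of 0.14, and Control against Untreated gave 12 higher, 46 lower and a median of -0.33. Scaled to the reads on the 86 genes, a choice made after seeing the data, Control against Untreated gave 23 higher, 28 lower and a median of -0.042. Over all 13527 genes tested with this scaling, 3672 were higher and 6163 lower, with a median of -0.31. Corrected for length and GC, the counts over all genes were 3398 higher and 3012 lower of 12827 after 5-FU. They were 3041 and 3250 of 12288 with nifedipine, and 4782 and 4488 of 12957 in Control against Untreated. With DESeq2, Nifedipine against Control gave 18 lower, and Control against Untreated gave 12 lower. Over all genes, DESeq2 gave 3182 of 12805 and 5171 of 13518 lower. With RLE factors, Control against Untreated gave 11 lower, against 5062 of 13518 over all genes. With the replicate block, Nifedipine against Control gave 18 lower. In 1 fit of all 4 groups, Control against Untreated gave 11 lower, against 5427 of 14074 over all genes. The share of exon reads was 1.1% in 5-FU day4, 0.955% in Untreated, 1.4% in Nifedipine and 1.34% in Control libraries over the RPKM read total. The share of exon reads was 3.82% in 5-FU day4, 4.03% in Untreated, 4.18% in Nifedipine and 3.9% in Control libraries with the genes the name rule misses. The share of exon reads was 12.9% in 5-FU day4, 14.5% in Untreated, 13.6% in Nifedipine and 12.5% in Control libraries with reads divided by exon length. The share of exon reads was 3.67% in Untreated and 3.54% in Control libraries with primary copies only.

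Each library was left out in turn. 5-FU day4 against Untreated then gave 15 to 21 genes higher and 13 to 18 lower, a median of 0.0022 to 0.027, 3129 to 3502 higher and 2731 to 3321 lower over all genes, and a difference of the Rpl22l1 to Rpl22 log2 ratio of 0.045 to 0.12. Nifedipine against Control then gave 9 to 23 genes higher and 8 to 14 lower, a median of -0.033 to 0.050, 2876 to 3110 higher and 2727 to 3025 lower over all genes, and a difference of the Rpl22l1 to Rpl22 log2 ratio of -0.21 to -0.049. Control against Untreated then gave 42 to 48 genes higher and 7 to 9 lower, a median of 0.19 to 0.23, 4567 to 4807 higher and 4508 to 4786 lower over all genes, and a difference of the Rpl22l1 to Rpl22 log2 ratio of 0.21 to 0.38. Without Nifedipine replicate 2, 23 genes were higher and 9 lower with nifedipine. The nifedipine calls of Rpl27, Rpl7a, Rpl10a, Rps4x and Rps12 and the 5-FU call of Rpl17 were each lost with at least 1 library left out. Deviations of same-numbered libraries from their group means correlated weakly. The correlations were -0.14 to 0.16 for 5-FU day4 and Untreated, and 0.012 to 0.047 for Nifedipine and Control. For Control and Untreated they were 0.0069 to 0.035. Between differently numbered 5-FU day4 and Untreated libraries the correlations ran wider, from -0.45 to 0.38. These values cannot decide whether the numbers mark a shared animal or culture, because a shared source need not move libraries together. With the replicate block the counts were 17 higher and 16 lower after 5-FU, 12 and 18 with nifedipine, and 44 and 7 in Control against Untreated. DESeq2, limma, RLE factors and no filter left the counts after 5-FU within 1.5 times of those given. The number of libraries, 3 or 4 a group, and of sorted cells, 100 a library, limits which small changes can be seen.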
